A study of Mus musculus with 9 samples.

Results

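A set of 39 genes that control pre-mRNA splicing was followed in mouse lung after ventilator-induced lung injury (VILI). The genes were taken by name from a list of SR proteins (12 genes), kinases of SR proteins (6), SR-related proteins (8) and heterogeneous nuclear ribonucleoproteins, or hnRNPs (13). All 39 were found among the 27203 genes of the table, where they held 160 of 60108 transcript rows. The values are FPKM (fragments per kilobase of exon, scaled to the fragments of the library), which are per length and so allow levels of different genes to be set side by side. A gene's level is the sum of the FPKM of its rows.

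The lungs came from male C57BL/6 mice aged 6 to 8 weeks, 3 mice and 3 libraries in each of 3 groups, and the strain is the only genotype given. Control mice were intubated without ventilation, and mice of both VILI groups were ventilated mechanically for 4 hours with 20 ml/kg per breath, after which lungs were taken at 0 hours or at 6 hours. The design thus asks which genes differ directly after injurious ventilation, which differ after a recovery period, and which differ between the 2 time points. No group was ventilated with a small breath volume, so effects of ventilation itself and of its high volume cannot be told apart. RNA was depleted of ribosomal RNA, so unspliced and non-polyadenylated RNA could enter the libraries.

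SR proteins bind exonic sequences through RNA recognition motifs and recruit the splicing machinery through domains rich in arginine and serine. CLK kinases, inside the nucleus, and SRPK kinases, mainly in the cytoplasm, phosphorylate these domains and so set where SR proteins reside and whether they are active, while hnRNPs coat nascent RNA and often act against them. Many of these genes regulate their own messages by including a poison exon or retaining an intron, which sends the RNA to nonsense-mediated decay or keeps it in the nucleus.

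This second layer of regulation was only partly visible in the table. In the GENCODE M21 annotation, 32 of the 39 genes (82.1%) had a transcript marked for nonsense-mediated decay, against 20.6% of all 21694 genes with a protein-coding transcript. A retained-intron transcript was annotated for 33 (84.6%), against 41.9%. The rows carry no transcript names, but their number equalled the number of protein-coding transcripts in 32 of the 39 genes and in 87.3% of all genes. It equalled the number of all transcripts in 0 of the 37 members that also have other transcript types, and in 0.571% of such genes overall. The decay and retained-intron forms therefore appear to have no rows of their own, although 70 and 143 of them are annotated for these genes, and fragments from them may have been counted toward the coding rows.

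Over 9 libraries the FPKM of a library summed to between 366360 and 388459, and the reads behind each value were not used here, so precision rests on the 3 libraries a group. Lung markers such as Sftpc and Scgb1a1 were detected in every library, with the 7 lung markers summing to between 34800 and 51600 FPKM. Libraries of one group did not always lie together. VILI 6 hours replicate 1 had 489 summed FPKM for 5 erythroid genes against 3230 to 5420 in the other 8, and VILI 6 hours replicate 3 held the lowest value of 31.3% of all genes tested.

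Directly after ventilation, 5 of the 39 genes rose and 0 fell against control (limma, unadjusted P under 0.05, the threshold of the study). The background was 16.2% of all 19378 genes in either direction, 6.81% higher and 9.35% lower. The 5 genes were the kinases Clk1, Clk3 and Clk4, the SR protein Srsf4 and the hnRNP gene Hnrnpl. At 6 hours, 4 genes lay above control (Srsf4, Hnrnpa3, Hnrnpab and Hnrnpf) and 3 below (Clk1, Clk2 and Luc7l3), beside a background of 20.4% in either direction, 8.17% higher and 12.2% lower. Between the time points, Hnrnpab and Hnrnpf were higher at 6 hours and Clk1, Clk4, Luc7l3 and Rbm39 lower, beside 10% of all genes in either direction, 5.06% higher and 4.94% lower. After Benjamini-Hochberg adjustment over all genes, 0 of the 39 passed in any comparison (0.284%, 0.702% and 0.0% of all genes did). Both comparisons with control share the same 3 control libraries. Single libraries moved these counts. At 0 hours 3 genes (7.69%) were called without control replicate 1 or 3 or VILI 0 hours replicate 1 or 3, where 10.8 to 12.9% of all genes were called in the same fits. With control replicate 2 left out 1 was called (2.56%, beside 10.2% of all genes), and in the absence of VILI 6 hours replicate 3 the number was 8 (20.5%, beside 20.1%). At 6 hours against control 15 (38.5%) were called without VILI 6 hours replicate 1, where 38.8% of all genes were called in the same fit, and 3 or 4 (7.69 or 10.3%) without any 1 of the controls or VILI 6 hours replicate 2 or 3, where the share of all genes was 13.1 to 14.5%. The lowest adjusted p of a member was 0.106, 0.141 and 0.115 in these 3 comparisons.

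Most of the set lay close to control. The median log2 fold change of the 39 genes was -0.03 at 0 hours and -0.05 at 6 hours against control, with -0.07 and -0.09 for all genes. The median absolute change was 0.14 and 0.18 on the log2 scale, against 0.23 and 0.27 for all genes. Between the time points it was 0.12 against 0.19. The median library level differed by -0.11 and -0.13 log2 units in the 2 comparisons with control, and centring each library on its median moved the members' medians to 0.08 and 0.07, so these small medians have no sign that holds under both scalings. In whole lung, fewer cells of a type and less RNA per cell cannot be told apart.

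**Figure D1:**
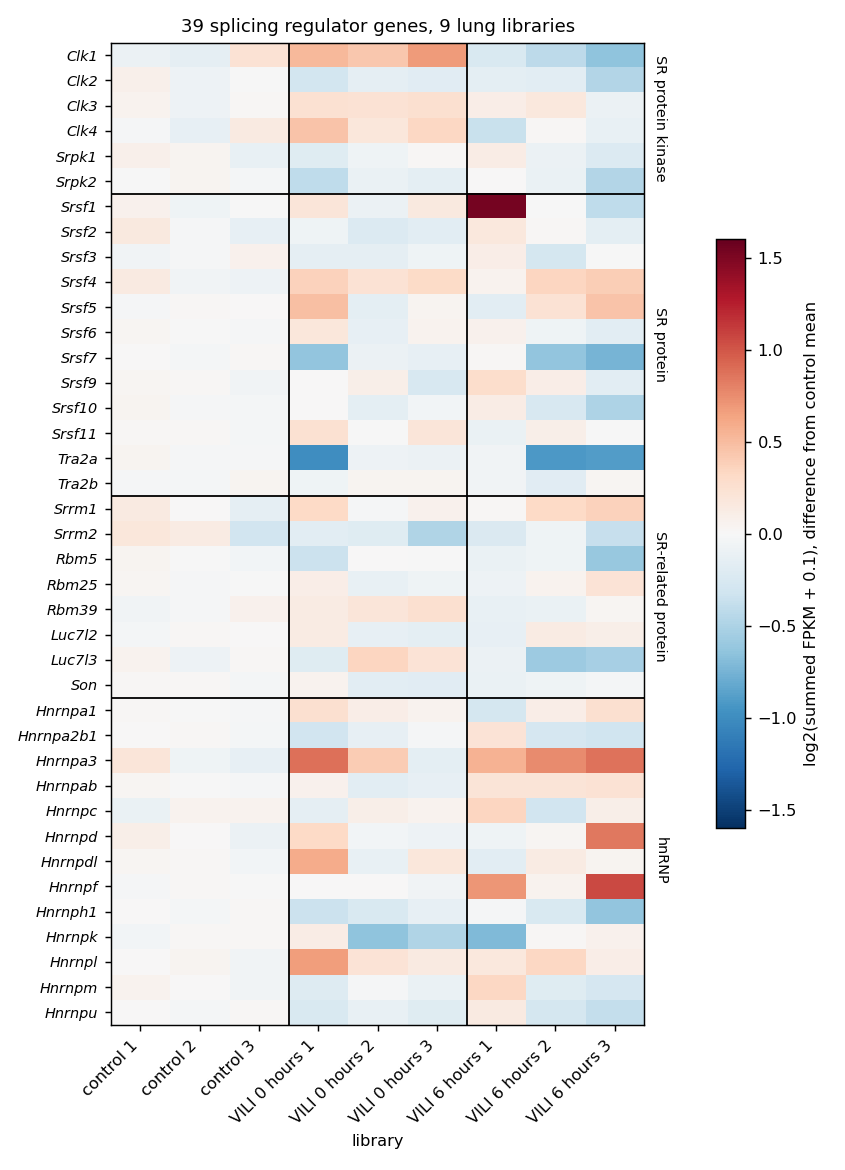
Difference of each gene from its control mean on the log2(summed FPKM + 0.1) scale, with the 9 libraries as columns and the 39 genes as rows grouped by role. Clk1 is high in all 3 VILI 0 hours libraries and low in all 3 VILI 6 hours libraries, while Tra2a and Srsf7 are low in VILI 0 hours replicate 1 and VILI 6 hours replicates 2 and 3.

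The kinases held the clearest change of the set. Clk1, a dual-specificity kinase of SR proteins (ENSMUSG00000026034, chr1:58410189-58424066, minus strand, GRCm38), has 1 row. It stood at 96.4, 92.8 and 121 FPKM in control libraries, at 147, 139 and 165 at VILI 0 hours, and at 86.6, 76.8 and 65.8 at VILI 6 hours. The 3 groups did not overlap: every 0-hour library was above every control, and every 6-hour library was below every control. The rise at 0 hours was 1.46-fold (log2 fold change 0.54, SE 0.14, limma P = 0.00294, adjusted p = 0.106, exact permutation p = 0.1). By 6 hours Clk1 was 0.43 log2 units below control (P = 0.0108, adjusted p = 0.143, exact permutation p = 0.1) and 1.97-fold below its 0-hour level (log2 fold change -0.98, P = 4.26e-05, adjusted p = 0.115). Each of these 3 differences kept its direction and a P under 0.05 in all 18 alternative analyses. The exact permutation test, two-sided over 3 libraries a group, has 0.1 as its smallest possible p, so it cannot pass 0.05 for any gene here.

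Clk4, the closest relative of Clk1, ran in the same order. Its levels were 32.8, 30.2 and 36.6 FPKM in control, 45.5, 37.4 and 41.6 at 0 hours and 25.9, 33.5 and 30.5 at 6 hours. The 0-hour libraries lay above the control libraries, and control and 6-hour libraries overlapped. Clk4 rose by 0.32 log2 units at 0 hours (SE 0.13, P = 0.0304, adjusted p = 0.255, exact permutation p = 0.1) and was 0.47 lower at 6 hours than at 0 hours (P = 0.00429, adjusted p = 0.289). The first call was lost without control replicate 1 or 2 and without VILI 0 hours replicate 1 or 3, with the replicate number as a block in the model (the replicate block) and with the mean-variance trend of limma off, and P reached 0.114 over the alternatives. The second held in all 18. The change was largest in row 1 of 4, which held 19.4, 17.4 and 22.8 FPKM in control, 26.7, 26.0 and 29.0 at 0 hours, and 16.4, 18.0 and 15.0 at 6 hours. Row 1 rose by 0.46 log2 units at 0 hours (adjusted p = 0.267) and was 0.72 lower at 6 hours than at 0 hours (log2 fold change -0.72, adjusted p = 0.28). Row 2 was also lower at 6 hours, by -0.40 log2 units against control and -0.47 against 0 hours, while row 3 and row 4 did not pass in any comparison.

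Clk3, another member of the family, was steadier. It read 21.1, 19.1 and 20.5 FPKM in control, 24.0, 23.8 and 24.1 at 0 hours and 21.7, 22.7 and 18.9 at 6 hours. All 0-hour libraries lay above all others. The rise at 0 hours was 0.24 log2 units (SE 0.10, P = 0.0321, adjusted p = 0.259, exact permutation p = 0.1), carried by row 1 of 4 (log2 fold change 0.41, adjusted p = 0.367). It was lost without control replicate 2 or 3 or any 1 of the 0-hour libraries, and also with the replicate block or the trend off, with P up to 0.117 over the alternatives. The 0.18 lower level at 6 hours than at 0 hours did not pass (adjusted p = 0.566).

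Clk2 did not follow the other CLK genes. It fell from 22.8, 20.4 and 21.5 FPKM in control to 19.4, 19.2 and 15.5 at 6 hours (log2 fold change -0.26, SE 0.11, limma P = 0.0458, adjusted p = 0.237, exact permutation p = 0.1), with 17.5, 19.5 and 19.0 between. At 0 hours its difference of -0.21 did not pass (adjusted p = 0.404), although the groups did not overlap. The 6-hour call was lost in 11 of 18 alternatives, among them the median-centred libraries (log2 fold change -0.13) and the analyses without any 1 of the controls, without VILI 0 hours replicate 2 or 3, or without VILI 6 hours replicate 3, which left a log2 fold change of -0.15. P reached 0.681 when the row with the highest mean stood for the gene (log2 fold change -0.13). Row 1 of Clk2, at 2.64, 1.89 and 2.05 FPKM for the controls, 0.813, 2.16 and 1.45 at 0 hours and 1.1, 0.903 and 1.11 at 6 hours, was lower than control at 6 hours by a log2 fold change of -1.0 (adjusted p = 0.292). VILI 0 hours replicate 1 lay below every 6-hour library. That call was lost without control replicate 1 or VILI 6 hours replicate 2, with P up to 0.0626 over the alternatives.

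The SRPK kinases did not pass in any comparison. Srpk1 ranged from 13.5 to 17.2 FPKM over the 9 libraries and Srpk2 from 8.79 to 12.5. Among the 6 kinases together, 3 rose at 0 hours (beside 6.81% of all genes), and 2 lay lower at 6 hours in each of the other comparisons (beside 12.2% against control and 4.94% against 0 hours). Clk1, Clk3, Clk4 and the SR-related gene Rbm39 had their 3 highest values in the 3 VILI 0 hours libraries. This order was found in 4 of 39 members (10.3%) and in 386 of all 19378 genes (1.99%), a count given as a description.

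**Figure D2:**
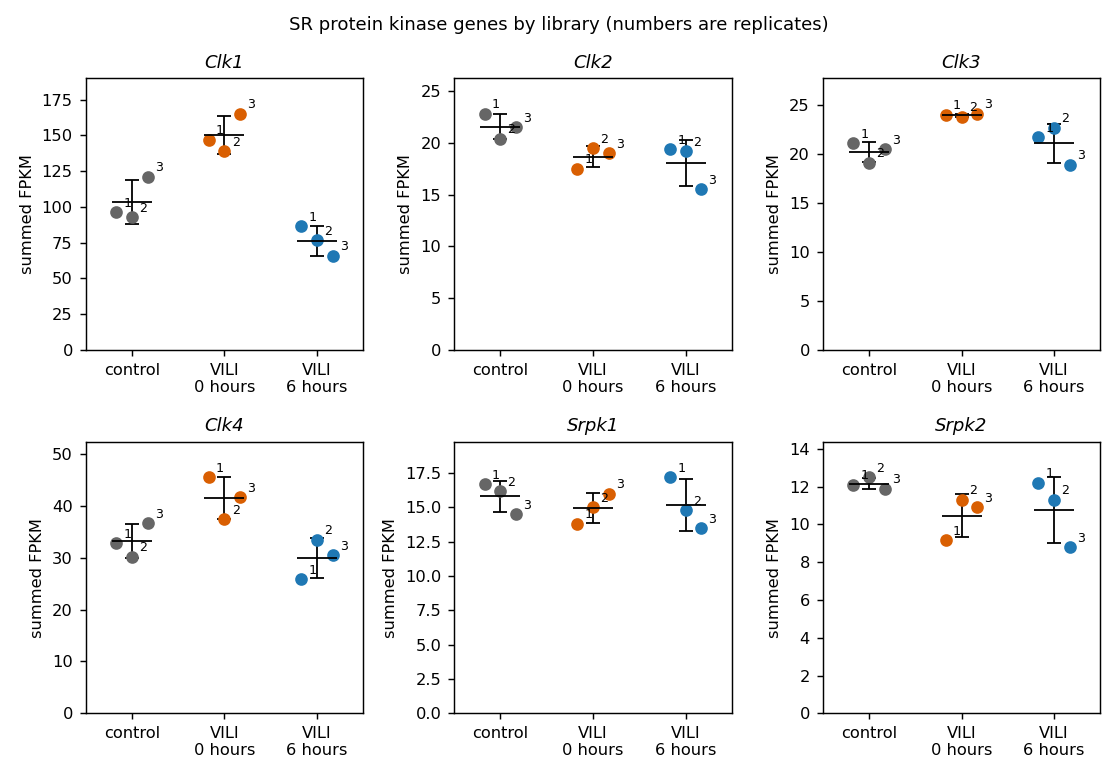
Summed FPKM of the 6 kinase genes in each library, with points for replicates 1 to 3, a bar for the group mean and whiskers for 1 SD (n = 3). Clk1 goes from 92.8 to 121 in control to 139 to 165 at VILI 0 hours and 65.8 to 86.6 at VILI 6 hours, whereas Srpk1 and Srpk2 overlap between control and VILI 6 hours.

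Clk1 and Clk4 share an exon that bears on how these values are read. In each gene a coding exon of 91 bases is left out of an annotated transcript, for Clk1 a transcript marked for nonsense-mediated decay. Clk1 is known to promote the skipping of its own exon, and the skipped form of Clk1 appears to have no row here. The exons are shown because they are the regulated segment and are alike in the 2 genes. They lie at chr1:58420121-58420211 (minus strand) for Clk1 and chr11:51273078-51273168 (plus strand) for Clk4, GENCODE M21 on GRCm38, and capitals mark the 6 bases that differ.
Clk1 exon: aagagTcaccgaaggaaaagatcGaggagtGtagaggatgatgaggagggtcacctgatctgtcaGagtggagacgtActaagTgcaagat
Clk4 exon: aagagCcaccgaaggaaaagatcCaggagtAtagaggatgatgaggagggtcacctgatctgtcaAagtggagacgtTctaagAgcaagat
The exons were identical at 85 of 91 bases (93.4%). The share of Clk1 or Clk4 RNA that skips the exon was not analysed here. Clk4 also overlaps BC049762 and Clk3 overlaps Edc3, both on the opposite strand. On their own strand Clk4 overlaps the small RNA gene Gm25082, Srsf4 overlaps A930004J17Rik, Srsf11 overlaps Gm43362 and Srpk2 overlaps Gm43566. The values of these members are less certain for that reason too.

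The promoters of Clk4 and Clk3, which rose at 0 hours, are shown for comparison, as 250 bases before the gene start in RefSeq (GRCm38.p6). In GENCODE M21 both windows lie inside the genes, as Clk4 starts at chr11:51261730 (plus strand) and Clk3 at chr9:57765860 (minus strand). The starts of the 2 annotations thus differ. Of the 39 members 38 matched a promoter, and the one without an entry is Clk1. Capitals mark TGACG, the core of the element bound by CREB and ATF factors, on either strand, including 1 full palindrome TGACGTCA in Clk4.
Clk4 promoter, chr11:51262864-51263113, plus strand: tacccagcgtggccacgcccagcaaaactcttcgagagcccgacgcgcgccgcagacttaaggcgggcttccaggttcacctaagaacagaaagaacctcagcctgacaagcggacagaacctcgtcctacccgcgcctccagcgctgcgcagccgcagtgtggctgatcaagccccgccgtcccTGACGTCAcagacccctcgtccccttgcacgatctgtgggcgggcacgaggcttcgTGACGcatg
Clk3 promoter, chr9:57765115-57765364, minus strand: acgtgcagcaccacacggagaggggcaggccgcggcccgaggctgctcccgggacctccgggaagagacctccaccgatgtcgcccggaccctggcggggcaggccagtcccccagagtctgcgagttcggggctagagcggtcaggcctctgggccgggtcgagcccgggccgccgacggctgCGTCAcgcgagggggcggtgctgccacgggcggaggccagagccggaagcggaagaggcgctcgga
The palindrome TGACGTCA begins 65 bases before the RefSeq start of Clk4. It was found for 2 of 38 members, Clk4 and Tra2a, and for 1.77% of 27025 genes with windows of the same length. These 27025 genes were not limited to those detected in lung. TGACG was found in 21 of 38 and in 19.79% of all, and every palindrome also counts as TGACG. The other motifs searched on both strands were CACGTG, in 4 of 38 members and 6.86% of all, and the heat-shock element (GAA, TTC and GAA, each 2 bases apart), in 2 of 38 (Hnrnpa2b1 and Tra2b) and 0.51%. These matches describe the letters in the window and no binding was measured.

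Among the 12 SR proteins, 1 rose against control at each time and 0 fell, where 6.81 and 8.17% of all genes rose, so this count is near the background. Srsf4, an SR protein that can act on both constitutive and alternative exons, has 1 row and stood at 22.3, 19.4 and 19.2 FPKM in control, at 26.2, 23.7 and 25.0 at 0 hours and at 21.0, 25.8 and 26.6 at 6 hours. The 0-hour libraries were above control, whereas VILI 6 hours replicate 1 lay within the control range. Srsf4 rose by 0.30 log2 units at 0 hours (SE 0.12, P = 0.0284, adjusted p = 0.249, exact permutation p = 0.1) and was 0.26 above control at 6 hours (P = 0.048, adjusted p = 0.241, exact permutation p = 0.2). Leaving out control replicate 2 or 3 or VILI 0 hours replicate 1 or 3, the replicate block and turning the trend off each ended the first call (P up to 0.0909 over the alternatives). The second was lost in 11 of 18 alternatives (P up to 0.137 over the alternatives), among them those without control replicate 2 or 3, without any 1 of the 0-hour libraries and without VILI 6 hours replicate 2 or 3.

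Tra2a and Srsf7 gave the lowest fold changes of the SR proteins without passing the test. Tra2a, a sequence-specific splicing activator, read 43.3, 41.6 and 41.4 FPKM for the controls and 21.0, 39.9 and 39.3 at 0 hours. At 6 hours it read 40.6, 22.2 and 22.6. Thus 3 ventilated libraries lay near 22 FPKM, and the other 3 lay just under the controls. The log2 fold change was -0.39 at 0 hours (SE 0.28, adjusted p = 0.535) and -0.62 at 6 hours (adjusted p = 0.251). Without VILI 0 hours replicate 1 the first was -0.09, and leaving out 1 library at 6 hours gave -0.47 to -0.91 for the second. Srsf7, an SR protein with a zinc knuckle, showed the same libraries low: 29.4, 28.7 and 29.7 FPKM in control, 18.9, 27.4 and 26.7 at 0 hours and 29.6, 18.8 and 17.4 at 6 hours. Its log2 fold change was -0.28 at 0 hours (SE 0.21, adjusted p = 0.536), or -0.11 without VILI 0 hours replicate 1, and -0.45 at 6 hours (adjusted p = 0.254), or -0.69 without VILI 6 hours replicate 1.

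Srsf5 was the most abundant SR protein gene and moved the other way in those libraries. It read 174, 179 and 178 FPKM in control, 248, 159 and 182 at 0 hours and 158, 207 and 243 at 6 hours, with overlap of all groups (exact permutation p = 0.7 at 0 hours and 0.4 at 6 hours). Srsf1, the founding SR protein, was 8.92 to 13.5 FPKM in 8 libraries and 34.3 in VILI 6 hours replicate 1 (exact permutation p = 0.9 at 6 hours). Its rows 2 and 3 were both raised in that library, to 15.3 and 19.0 FPKM.

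The other SR proteins stayed within narrow ranges. Srsf2 lay between 60.8 and 79.8 FPKM, Srsf3 between 46.7 and 61.2, Srsf6 between 44.8 and 56.9, Srsf9 between 18.4 and 26.8, Srsf10 between 31.9 and 48.9, Srsf11 between 29.9 and 38.1 and Tra2b between 26.8 and 31.5. Tra2b, which like Tra2a binds purine-rich exonic enhancers, had log2 fold changes of 0.01 and -0.07 against control with an SE of 0.09. The 2 rows of Srsf6 ran apart at 6 hours, and they were chosen here after their values were seen. At 6 hours 14.8% of member rows lay wholly below control, beside 11.2% of all rows. Row 2 held 12.0, 11.2 and 11.7 FPKM in control, 9.94, 11.1 and 11.8 at 0 hours and 8.8, 7.27 and 5.09 at 6 hours. All 6-hour libraries lay below all others, and row 2 was -0.75 log2 units from control (adjusted p = 0.212) and -0.66 from the 0-hour level (adjusted p = 0.528), while row 1 ranged from 34.9 to 47.0 FPKM and did not pass.

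**Figure D3:**
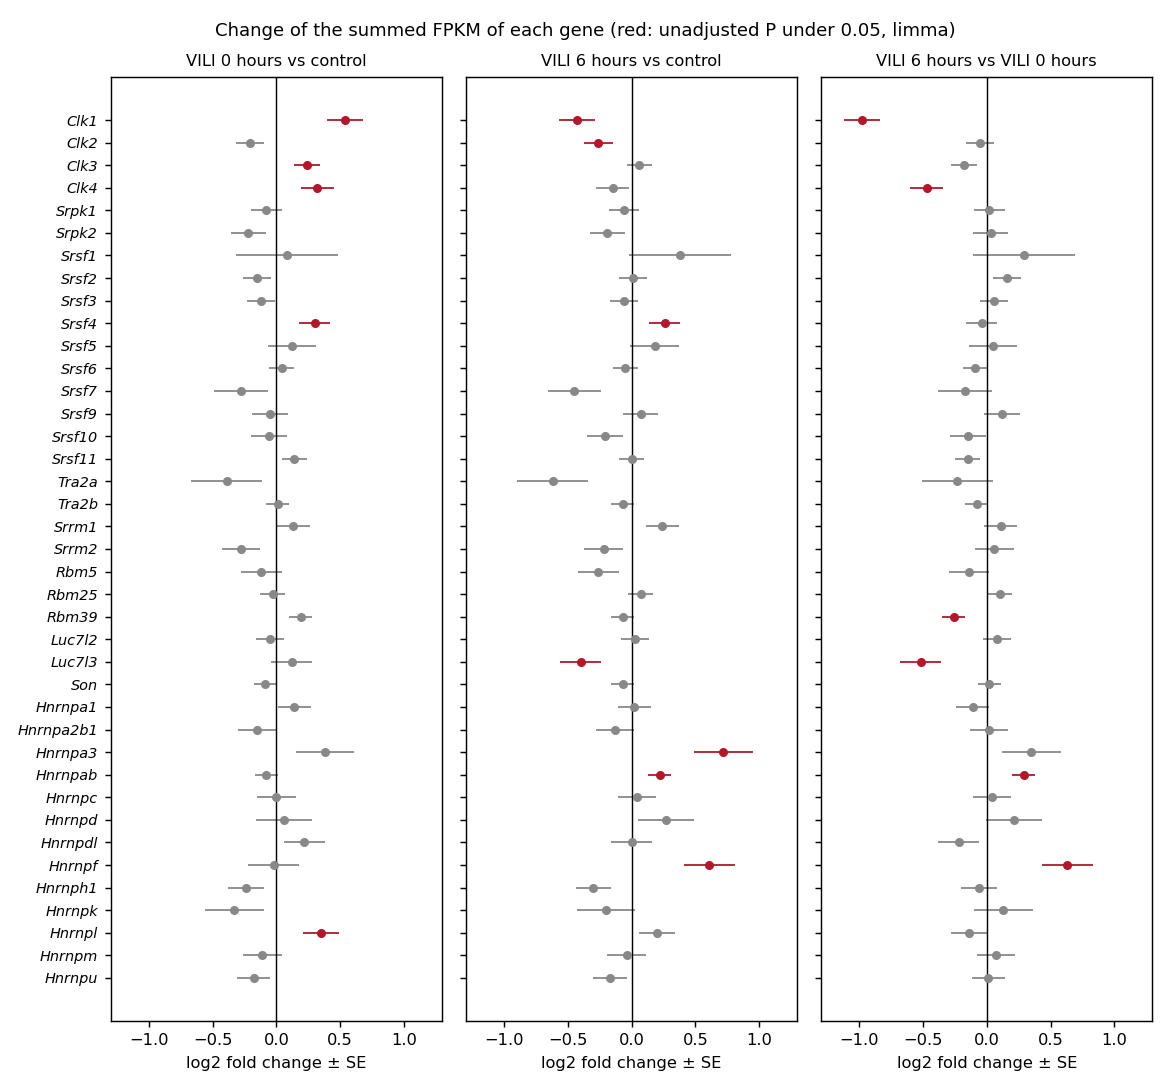
Log2 fold change of the summed FPKM of each gene with its standard error from limma, in 3 panels for the 3 comparisons, with red for those that passed at P under 0.05. In the first panel, VILI 0 hours against control, 5 points are red, all to the right of 0, and the largest change in any panel is the -0.98 of Clk1 between the time points.

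Of the 8 SR-related proteins, 0 passed at 0 hours, 1 fell against control at 6 hours (beside 12.2% of all genes) and 2 were lower at 6 than at 0 hours (beside 4.94%). Luc7l3, a relative of a yeast U1 snRNP component, stood at 40.9, 37.3 and 39.9 FPKM in control, 34.3, 49.8 and 45.8 at 0 hours and 36.8, 26.3 and 27.2 at 6 hours. It was lower at 6 hours by 0.40 log2 units against control (SE 0.16, P = 0.0368, adjusted p = 0.218, exact permutation p = 0.1) and by 0.52 against 0 hours (P = 0.0109, adjusted p = 0.361, exact permutation p = 0.2). The second difference held in all 18 alternatives, though VILI 0 hours replicate 1 overlapped the 6-hour libraries. The first was lost in 9, among them the median-centred libraries and the analyses without any 1 of the controls or without VILI 6 hours replicate 2 or 3, with P up to 0.63 over the alternatives, reached with the row of highest mean (log2 fold change -0.22).

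Rbm39, a U2AF-related splicing coactivator and the target of aryl sulfonamide degraders, was 126, 129 and 137 FPKM in control, 143, 149 and 156 at 0 hours and 120, 121 and 134 at 6 hours. The 0-hour libraries lay above all others. It was 0.26 log2 units lower at 6 hours than at 0 hours (SE 0.09, P = 0.0143, adjusted p = 0.388, exact permutation p = 0.1), a call lost only when libraries were centred on their medians (P = 0.0851). The rise of 0.19 at 0 hours did not pass (adjusted p = 0.313). Row 2 of 7, with 71.3, 80.1 and 76.4 FPKM for the controls and 87.9, 91.1 and 92.8 at 0 hours, did pass (log2 fold change 0.25, adjusted p = 0.334) and returned to 69.6, 76.5 and 80.5 at 6 hours.

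The remaining 6 did not pass at the gene level. Son, a large nuclear speckle protein, lay between 85.0 and 100 FPKM, and Srrm2, the other scaffold of speckles, between 90.9 and 143. Rbm25 lay between 37.1 and 47.2 FPKM, Rbm5 between 29.5 and 46.6, Luc7l2 between 47.2 and 57.7 and Srrm1 between 30.5 and 43.5.

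Among the 13 hnRNPs, 1 rose at 0 hours and 3 at 6 hours against control, and 0 fell, beside 6.81 and 8.17% of all genes that rose. Hnrnpl, which binds CA-rich elements, was 67.2, 69.1 and 64.3 FPKM in control, 106, 77.9 and 74.1 at 0 hours and 75.3, 84.4 and 71.7 at 6 hours. All 6 ventilated libraries were above all controls. The rise was 0.35 log2 units at 0 hours (SE 0.14, P = 0.0312, adjusted p = 0.257, exact permutation p = 0.1), while the 0.20 at 6 hours did not pass (adjusted p = 0.411). Without VILI 0 hours replicate 1 the rise was 0.18 log2 units and did not pass. It was also lost without any 1 of the controls, with the trend off and with the row of highest mean, which rose by 0.23 (P up to 0.124 over the alternatives).

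Hnrnpab, a CArG-box and RNA-binding protein, was 98.2, 95.7 and 95 FPKM in control, 101, 85.4 and 88.1 at 0 hours and 111, 111 and 113 at 6 hours. The 6-hour libraries were above all others. The difference was 0.22 log2 units against control (SE 0.09, P = 0.0345, adjusted p = 0.213, exact permutation p = 0.1) and 0.29 against 0 hours (P = 0.00813, adjusted p = 0.335). The second held in all 18 alternatives. The first was lost without any 1 of the controls, without VILI 6 hours replicate 2 or 3, with the replicate block, with the trend off and with the row of highest mean, whose log2 fold change was 0.12 (P up to 0.383 over the alternatives).

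Hnrnpf, which binds G-rich tracts, was 94.8, 97.3 and 95.8 FPKM in control and 96.3, 96.1 and 92.0 at 0 hours. At 6 hours it was 157, 100 and 200, so that replicates 1 and 3 were far above the other 7 libraries and replicate 2 only just above them. The log2 fold change was 0.61 against control (SE 0.20, P = 0.0143, adjusted p = 0.156, exact permutation p = 0.1) and 0.63 against 0 hours (P = 0.0123, adjusted p = 0.369). Without VILI 6 hours replicate 3 these were 0.39 and 0.40, and without replicate 2 they were 0.89 and 0.90, and both still passed. When the row with the highest mean, row 8, stood for the gene, the log2 fold changes were 1.44 and 0.11 and both calls were lost, with 3.99 FPKM of that row in control replicate 1 against 70.1 to 92.2 in the other 8 libraries (P up to 0.174 and 0.913 over the alternatives). Most of the excess lay in row 7 of 10, which held 74.3 and 89.4 FPKM in VILI 6 hours replicates 1 and 3 and 4.45 to 13.9 in the other 7 libraries. It made up 47.3 and 44.6% of the gene in those 2 libraries and 4.57 to 14.7% elsewhere. Row 8 was also at its highest, 92.2 FPKM, in VILI 6 hours replicate 3.

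Hnrnpa3 had a single non-zero row in every library, and not the same row throughout. Row 3 of 6 carried the gene in control replicate 1, at 24.8 FPKM. Row 5 carried it in control replicates 2 and 3 and in VILI 0 hours replicate 3, at 20.6, 19.7 and 19.4 FPKM. Row 4 carried it in the other 5, at 39.8 and 28.7 FPKM in VILI 0 hours replicates 1 and 2 and at 31.8, 36.4 and 39.4 in the 3 libraries at 6 hours. Every other row of the gene was listed at 0 in that library. The summed level was 0.72 log2 units above control at 6 hours (SE 0.23, P = 0.0104, adjusted p = 0.141, exact permutation p = 0.1), and in each library a level above 28 FPKM went with row 4. When the row with the highest mean, row 4, stood for the gene, the log2 fold change was 8.48, with that row listed at 0 in every control library.

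The other 9 hnRNP genes did not pass. Hnrnpa2b1, which carries RNA and reads methylated adenosine, had the highest mean of the set, at 218 to 314 FPKM, although Srsf5 was above it in VILI 0 hours replicate 1 and VILI 6 hours replicate 3. Hnrnpk, which binds C-rich tracts, was 140, 146 and 146 FPKM in control, 156, 92.3 and 103 at 0 hours and 88.2, 146 and 151 at 6 hours. Its 3 low libraries were thus the ventilated ones in which Tra2a was not low. Hnrnph1 was 115 to 119 FPKM in control and 92.3 to 107 at 0 hours without overlap, yet its change of -0.24 did not pass (adjusted p = 0.448). Hnrnpa1 lay between 83.1 and 121 FPKM, Hnrnpc between 31.6 and 49.5, Hnrnpd between 19.1 and 36.9, Hnrnpdl between 53.4 and 90.7, Hnrnpm between 41.2 and 62.8 and Hnrnpu between 29.9 and 43.2. Hnrnpm overlaps March2 on the same strand, so its values are less certain, and processed pseudogenes of hnRNP genes can share fragments with them.

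At 0 hours 7 members lay wholly above control and 7 wholly below, beside 12.0% and 21.6% of all genes. At 6 hours 4 lay wholly above control and 5 below, beside 9.64% and 15.0%. Between the time points 2 and 4 did, beside 6.25% and 6.28%.

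At the level of rows, 142 of the 160 passed the filter on low values (mean of at least 0.1 FPKM), and 13 were listed at 0 in every library. At 0 hours 15 rows passed, which is 10.6% of the rows tested beside 11% of all 37300, with 10 higher (4.71% of all rows) and 5 lower (6.31%). At 6 hours 17 passed (12.0% beside 13.2%), with 5 higher (5.73% of all rows) and 12 lower (7.51%). Between the time points 15 passed (10.6% beside 7.4%), with 5 higher (3.82% of all rows) and 10 lower (3.58%). The share of a row in its gene, tested as the log2 ratio to the gene's other rows, passed for 9, 14 and 7 of 128, beside 5.86%, 6.54% and 5.35% of all 23699. Without VILI 6 hours replicate 1 the rows called at 6 hours numbered 32 against control (22.5%, beside 24.3% of all rows in that fit) and 29 against 0 hours (20.4%, beside 14.3%), and the lowest counts were 9 (6.34%, beside 7.54% of all rows) at 0 hours and 11 (7.75%, beside 9.08%) at 6 hours, both without control replicate 2, and 8 (5.63%, beside 7.19%) between the time points without VILI 6 hours replicate 2. At 6 hours against control leaving out VILI 6 hours replicate 3 also gave 11 (beside 9.43%). The row shares called fell to 1 at 0 hours and 1 between the time points without VILI 0 hours replicate 2 (0.781% each, beside 5.26% and 4.68% of all row shares), and to 6 at 6 hours against control without VILI 6 hours replicate 3 (4.69%, beside 5.55%). After adjustment 0 rows and 0 shares of these genes passed in each comparison, beside 0.0509%, 0.0751% and 0.0214% of all rows and 0.0549%, 0.0802% and 0.0591% of all shares.

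Luc7l3 had row changes that did not rest on a value of 0. Row 2 of 5 held 9.11, 11.1 and 11.5 FPKM in control, 3.87, 5.16 and 5.57 at 0 hours and 6.76, 2.55 and 3.24 at 6 hours. Every ventilated library lay below every control. Its log2 fold change was -1.11 at 0 hours (SE 0.33, adjusted p = 0.3) and -1.43 at 6 hours (adjusted p = 0.18), and both calls held in all 17 alternatives. Its share of the gene was 22.3, 29.8 and 28.9% in control, 11.3, 10.4 and 12.2% at 0 hours and 18.4, 9.69 and 11.9% at 6 hours. Row 1 also fell at both times (log2 fold change -0.97 and -0.79, adjusted p = 0.232 and 0.263). Row 3 held 17.3, 12.1 and 12.6 FPKM in control, 18.2, 33.2 and 29.5 at 0 hours and 17.9, 5.61 and 16.7 at 6 hours, a log2 fold change of -1.13 between the time points (adjusted p = 0.644). Against control row 3 did not pass at either time (log2 fold change 0.91 and -0.22, adjusted p = 0.496 and 0.858). The change between the time points was lost without VILI 0 hours replicate 2 or 3 or VILI 6 hours replicate 2, the last leaving -0.6, and with only the 6 libraries compared (P up to 0.0989 over the alternatives).

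Several of the largest row changes were switches to or from a listed 0. Of the 100 member rows that exceeded 5 FPKM in some library, 8 (8.0%) were listed at 0 in another, beside 3.98% of such rows over all Ensembl genes. Rows 3, 4 and 5 of Hnrnpa3 were 3 of the 8. Row 4 of Srrm1, a coactivator of splicing, was 16.6 FPKM in control replicate 1, listed at 0 in control replicates 2 and 3, and 14.5 to 19.2 in the 6 ventilated libraries. Over the same libraries row 1 of Srrm1 was 13.0, 27.5 and 22.5 FPKM in control and 8.54 to 17.2 after ventilation. Where present, row 4 made up 39.3 to 51.6% of Srrm1, whose level as a whole overlapped between the groups.

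Luc7l2 and Rbm5 had rows missing from the same libraries. Row 2 of Luc7l2 was 9.24 to 10.8 FPKM in control, 6.6 to 8.36 at 0 hours, 8.64 in VILI 6 hours replicate 1 and listed at 0 in replicates 2 and 3. In those 2 libraries row 4 of Luc7l2 was 33.8 and 33.0 FPKM, against 14.1 to 20.7 in the other 7. Row 3 of Rbm5, a gene that modulates alternative splicing of apoptosis genes, was 5.97 to 7.93 FPKM in 7 libraries and listed at 0 in the same 2 libraries. Both rows passed at 6 hours against control (adjusted p = 0.288 and 0.291), and both calls were lost without VILI 6 hours replicate 2 or 3, with limma P up to 0.0643 and 0.0665 over the alternatives. As a share of the gene, row 2 of Luc7l2 went from 17.5 to 20.6% in control and row 3 of Rbm5 from 14.0 to 17% to 0 in those 2 libraries.

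The rest of the rows named by rule were less even. Row 2 of Hnrnph1 was 8.41, 1.85 and 18.5 FPKM in control, 4.88, 2.22 and 0.901 at 0 hours and 0.719, a listed 0 and 1.78 at 6 hours, and its call at 6 hours (adjusted p = 0.285) was lost without control replicate 3 (P up to 0.0604 over the alternatives). It made up 1.6 to 15.5% of the gene in control and at most 2.35% at 6 hours. Row 5 of Hnrnpk was 34.9, 34.1 and 35.7 FPKM in control, 26.7, 11.7 and 18.2 at 0 hours and 10.1, 23.1 and 23 at 6 hours. All ventilated libraries lay below control, with a log2 fold change of -0.96 at 0 hours (SE 0.37, adjusted p = 0.395) and -0.99 at 6 hours (adjusted p = 0.325). Centring the libraries, a replicate block or leaving out any 1 control ended both calls, as did leaving out VILI 0 hours replicate 2 or 3 for the first and VILI 6 hours replicate 1 for the second, which left -0.6 (P up to 0.111 over the alternatives). Row 7 of Hnrnpf, given above, passed against control (adjusted p = 0.302) and against 0 hours (adjusted p = 0.628), and neither call held without VILI 6 hours replicate 1 or 3. The first was also lost without control replicate 2 or with only the 6 libraries compared, and the second without any 1 of the VILI 0 hours libraries (P up to 0.0778 and 0.103 over the alternatives).

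**Figure D4:**
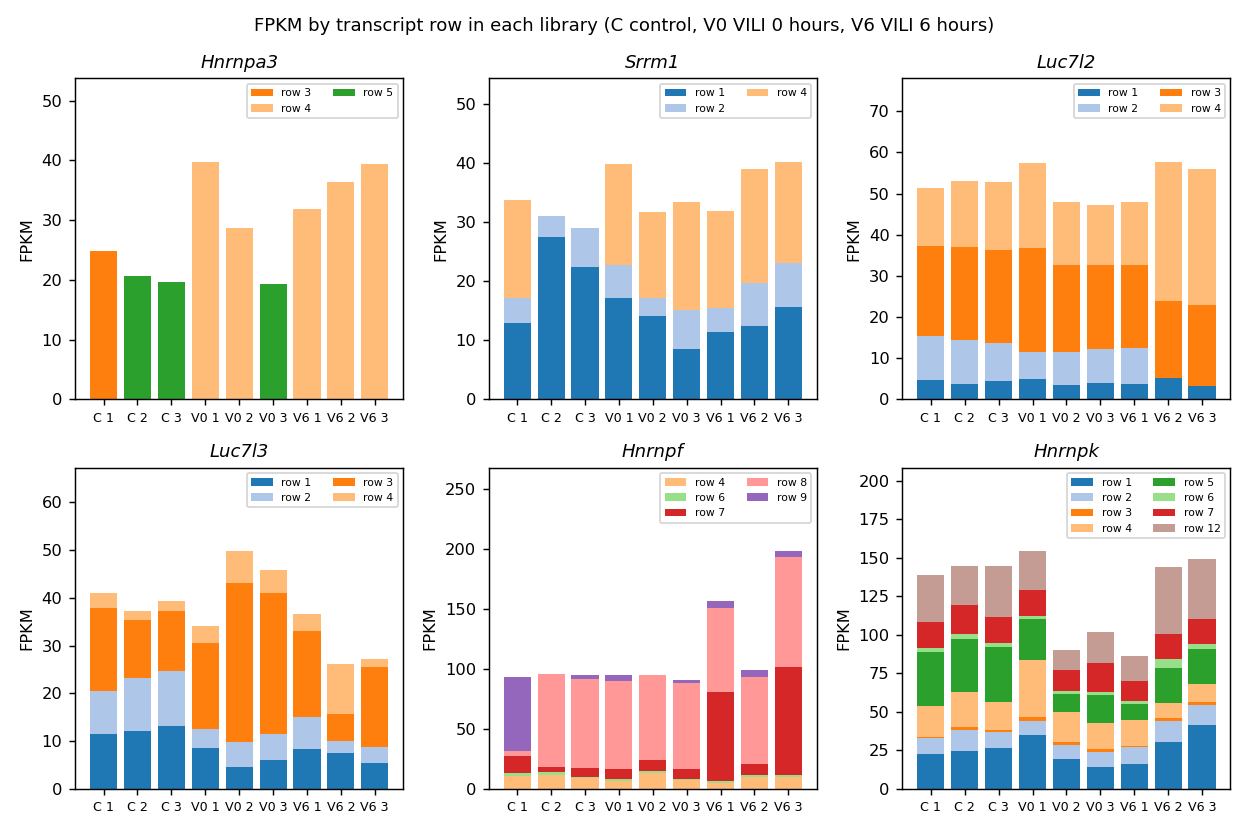
FPKM of the transcript rows of 6 genes stacked in each library, with rows that never reach 2 FPKM left out. In Hnrnpa3 1 row alone fills each bar, at 19.4 to 24.8 FPKM when it is row 3 or 5 and at 28.7 to 39.8 when it is row 4, and in Hnrnpf row 7 reaches 74.3 and 89.4 in VILI 6 hours replicates 1 and 3.

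Some members had their extreme values in libraries of both ventilated groups. In 6 members (15.4%: Hnrnpa2b1, Hnrnpm, Hnrnpu, Luc7l3, Srsf7 and Tra2a) the 3 lowest values were in VILI 0 hours replicate 1 and VILI 6 hours replicates 2 and 3, beside 14.3% of all genes, so that this order was about as frequent among the members as elsewhere. In 6 others (15.4%: Hnrnpa3, Luc7l2, Rbm25, Srrm1, Srsf4 and Srsf5) the 3 highest values were in these libraries, beside 5.26%. In 4 (10.3%: Hnrnpk, Luc7l2, Rbm25 and Son) the 3 lowest were in VILI 0 hours replicates 2 and 3 and VILI 6 hours replicate 1, beside 1.72%. This count was chosen after values had been seen, and neither records nor methods name what these libraries share. The cold-inducible RNA-binding protein genes Cirbp and Rbm3 were highest in the first set of libraries. Cirbp stood at 90.8 FPKM in VILI 0 hours replicate 1 and at 63.4 and 65.7 in VILI 6 hours replicates 2 and 3, against 30.6 to 42.0 elsewhere. Rbm3 stood at 149, 118 and 165 FPKM in them, against 50.7 to 103. Their part in the values of the splicing genes was not tested. For Clk1, replicate 1 was between the others at 0 hours. At 6 hours replicates 2 and 3 were its lowest 2 libraries, and replicate 1 was also below every control.

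**Figure D5:**
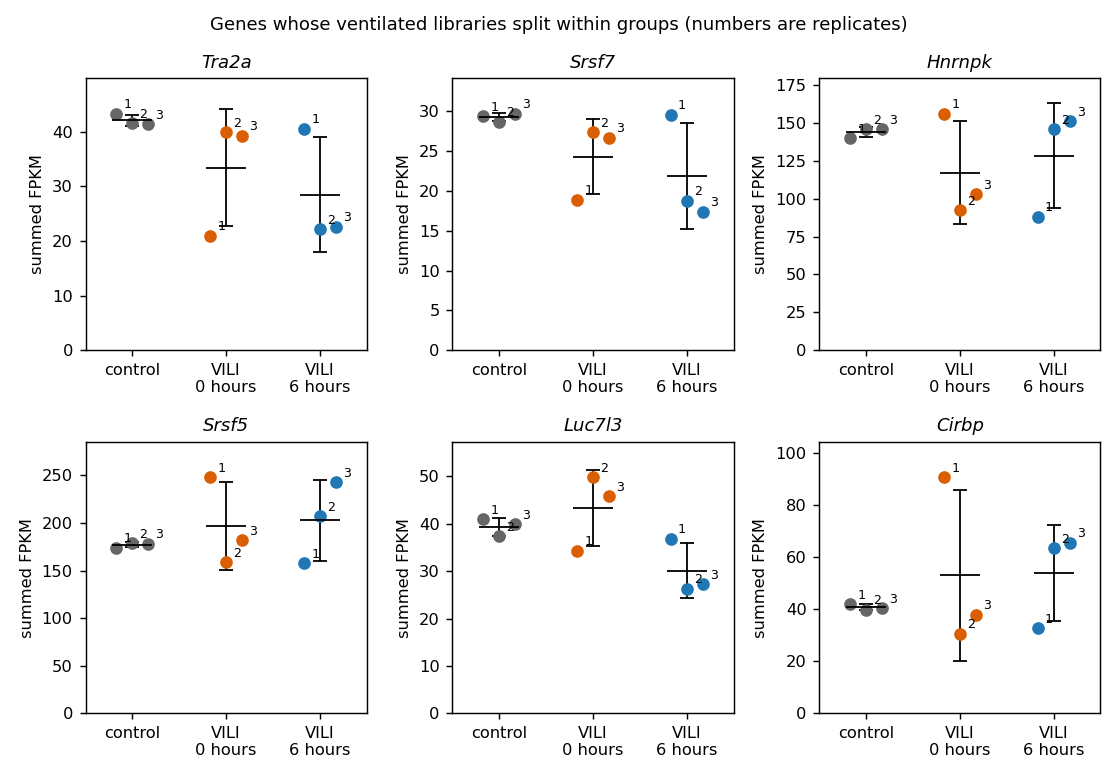
Summed FPKM of Tra2a, Srsf7, Hnrnpk, Srsf5, Luc7l3 and Cirbp in each library, with points for replicates 1 to 3, bars for group means and whiskers for 1 SD (n = 3). Within each ventilated group the points separate, with Tra2a at 21.0 to 22.6 in VILI 0 hours replicate 1 and VILI 6 hours replicates 2 and 3 and at 39.3 to 40.6 in the other 3 ventilated libraries, and Cirbp high where Tra2a is low.

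Further genes of the splicing machinery were counted in 3 lists, beside the same 16.2%, 20.4% and 10% of all genes. Of 40 core spliceosome genes, 0 passed at 0 hours. At 6 hours Snrpf and Sf3b4 were higher and Bcas2 lower against control, and Bcas2 and Snrpb2 were lower than at 0 hours. The summed level of these 40 genes stayed between 848 and 931 FPKM. Of 35 other splicing regulators, Rbfox2 fell at 0 hours (log2 fold change -0.30, adjusted p = 0.305), Pnisr and Rbmx fell at 6 hours against control (log2 fold change -0.46, adjusted p = 0.204, and -0.43, adjusted p = 0.165) and Rbmx was lower than at 0 hours (-0.36, adjusted p = 0.472), while 0 rose. Of 17 nonsense-mediated decay genes, Smg6 and Dis3 fell at 0 hours and Smg6 and Upf3b at 6 hours, and Eif4a3, a core of the exon junction complex, rose at 6 hours (0.25, adjusted p = 0.19). Smg6, the endonuclease of this pathway, was 15.8, 14.2 and 14.5 FPKM in control, 12.3, 11.2 and 10.3 at 0 hours and 13.2, 11.2 and 10.4 at 6 hours. All ventilated libraries were below control.

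Of 8 nuclear-retained RNAs listed, 4 could be tested, of which Neat1, the scaffold of paraspeckles, and Snhg11 fell at 0 hours and Snhg11 fell at 6 hours. For this and the following lists, 6.81% of all genes rose and 9.35% fell at 0 hours. Against control at 6 hours 8.17% rose and 12.2% fell, and between the time points 5.06% were higher and 4.94% lower. After adjustment 0 of the nuclear-retained RNAs passed. Of 10 heat-shock chaperones, which assist protein folding under stress, Dnajb1, Hspb1, Hspa1a and Hspa1b rose at 0 hours. Hspa1a was 2.94, 2.08 and 2.62 FPKM in control, 12.2, 5.85 and 37.0 at 0 hours and 4.84, 1.37 and 2.74 at 6 hours, with no overlap between control and 0 hours. Bag3 and Hspb1 were higher than control at 6 hours, and Hspa1a and Hspa1b were lower at 6 than at 0 hours while Hspb1 was higher. The part of this response in the Clk1 values was not tested.

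RNA of several cell type markers differed between the groups beside these results, at the unadjusted threshold. After adjustment 6 neutrophil markers passed in each comparison with control, and 0 markers of the other cell types passed in any comparison. Of 7 neutrophil markers, 6 rose at 0 hours and 7 at 6 hours, with sums of 111 to 128 FPKM in control, 693 to 1080 at 0 hours and 611 to 2760 at 6 hours. Of 5 B cell markers, 1 fell at 0 hours and 3 at 6 hours, with sums of 44.5 to 59.8, 19.1 to 60.7 and 12.5 to 37.5 FPKM. Of 5 alveolar macrophage markers 2 rose at 0 hours and were lower at 6 than at 0 hours, namely Ear1 (log2 fold change 0.99 and then -1.08) and Siglecf (0.98 and then -0.65). The other 3 did not pass in either comparison, with 0.02 and then 0.21 for Marco, 0.08 and then -0.35 for Pparg, and 0.74 at 0 hours for Chil3, which had the same mean at 6 hours on this scale. These 5 markers had sums of 153 to 215 FPKM in control, 257 to 335 at 0 hours and 166 to 555 at 6 hours. Of 5 fibroblast markers, 1 rose and 2 fell at 0 hours and 2 fell at 6 hours, and Dcn, the one that rose (log2 fold change 0.39), was lower at 6 than at 0 hours (-0.55). The fibroblast markers had sums of 575 to 691, 496 to 594 and 482 to 650 FPKM. Of 5 endothelial markers 1 fell at each time, with sums of 717 to 886 FPKM over the 9 libraries. Of the lung markers 1 rose at 0 hours, and 0 of the 5 T cell markers (8.74 to 28.4 FPKM) and 0 of the 6 cardiac muscle markers (136 to 302 FPKM) passed in any comparison. Of 5 erythroid markers 0 passed against control at either time and 3 were lower at 6 than at 0 hours, with median log2 fold changes of 0.53, -0.86 and -1.39 in the 3 comparisons. Their sums were 3230 to 4180 FPKM in control, 4920 to 5420 at 0 hours and 489, 3450 and 3870 at 6 hours. In no list was a marker at 0 in every library. Clk1 stood at 86.6, 76.8 and 65.8 FPKM at 6 hours where the neutrophil sum was 611, 1130 and 2760, and at 147, 139 and 165 at 0 hours where it was 693, 1080 and 912. The part of these cells in the values of the splicing genes was not tested.

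Assembled loci added little at these genes. The table gives positions for assembled transcripts, of which 29 rows overlapped a member gene, and all of them were on the opposite strand.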

How the data were processed

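Lung RNA of 9 mice was sequenced, 3 per group, as the sample records give them. The authors filtered reads, aligned them with TopHat2 2.0.9 (with Bowtie2 2.0.6) to GRCm38, assembled transcripts with Scripture and Cufflinks and deposited FPKM per transcript from Cuffdiff 2.1.1 (versions from the submitters' processing notes). The annotation release is not given in the sources used here, and the records and the methods name different kits and sequencers. Counts of reads were not analysed.

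Gene IDs were matched to GENCODE M21, rows were summed per gene, and a row is named by its place within its gene. Under R 4.3.3, limma 3.58.1 (functions lmFit and eBayes, trend on) was run on log2(FPKM + 0.1) for features with a mean of at least 0.1 FPKM, in 1 fit of 9 libraries, with calls at an unadjusted P under 0.05 and Benjamini-Hochberg adjustment over all 19378 genes, 37300 rows or 23699 row shares. Fold changes on this scale understate the change of low features. Row shares used log2 of (row + 0.1) over (other rows + 0.1), and genes with 2 rows counted once. Each limma P rests on the spread between mice within groups, pooled over the 3 groups and moderated across all features. A library outside a comparison can therefore change the calls of that comparison. The procedure was tested on simulated data. Alternatives were pseudocounts of 0.01 and 1, a mean of at least 1 FPKM, no filter, median-centred libraries, a fit of the 6 libraries of a comparison alone, the replicate number as a block, leaving out each library, and eBayes with the trend off. After seeing the data, the row with the highest mean was added.

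The members, roles, lists and markers were chosen with earlier results of these data known. Values by library, in full or as ranges, are given for members that passed at the gene level, for the 10 rows (mean of at least 1 FPKM) and 6 row shares with the largest change among those that passed, and for others named as chosen after their values were seen, including Tra2a, Srsf7, Srsf5, Srsf1 and Hnrnpk. Figures used Python 3.11.15 and matplotlib 3.10.9.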

Additional observations from a re-analysis of the deposited data

Results flagged for a closer look

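In all, 6 genes differed between the 2 time points after ventilation by the direct comparison of VILI 6 hours with VILI 0 hours (limma on summed FPKM, unadjusted P under 0.05, 0 of them after adjustment). These are 15.4% of the 39 genes, 2 higher and 4 lower, beside 10% of all 19378 genes, 5.06% higher and 4.94% lower. Clk1 changed by -0.98 on the log2 scale (adjusted p = 0.115), lower in 3 of 3 libraries at 6 hours than in any at 0 hours. Clk4 changed by -0.47 (adjusted p = 0.289) and Rbm39 by -0.26 (adjusted p = 0.388), each also without overlap. Luc7l3 changed by -0.52 (adjusted p = 0.361), with VILI 0 hours replicate 1 inside the range of the 6-hour libraries. Hnrnpab changed by 0.29 (adjusted p = 0.335) and Hnrnpf by 0.63 (adjusted p = 0.369), both higher in 3 of 3 libraries at 6 hours, and in Hnrnpf replicates 1 and 3 carried most of the difference.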

How the results depend on the processing

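Of 46 named results, 0 changed direction in any alternative, and 11 kept their side of the threshold in every one. All were chosen for a P under 0.05 in these data, and the alternatives reuse the same libraries, so a kept direction is no separate evidence. The sum, a row and a row share of 1 gene count as separate results. Without VILI 6 hours replicate 1, the genes called at 6 hours against control went from 7 to 15, and the rows called from 17 to 32, the row shares to 18, while the share of all genes called went from 20.4 to 38.8%. With each library left out in turn, genes called ranged from 1 to 8 at 0 hours, 3 to 15 at 6 hours and 6 to 8 between the time points, while the share of all genes called ranged from 10.2 to 23.2%, 13.1 to 38.8% and 7.26 to 22.4% (the lowest counts of the comparisons with control were without control replicate 2, and at 6 hours also without VILI 6 hours replicate 3). Rows called ranged from 9 to 20, 11 to 32 and 8 to 29 (all rows 7.54 to 14.5%, 9.08 to 24.3% and 5.65 to 14.3%), and row shares from 1 to 9, 6 to 18 and 1 to 15 (all row shares 4.67 to 6.26%, 5.55 to 10.3% and 4.68 to 8.11%). The members' median log2 fold change ranged from -0.06 to -0.01, -0.07 to -0.02 and -0.09 to 0.02. With only the 6 libraries compared, 9 genes were called at 0 hours (23.1%, beside 26.3% of all genes), 9 rows between the time points (6.34%, beside 5.15%) and 2 row shares between the time points (1.56%, beside 4.42%). With eBayes without a trend, 1 gene was called at 0 hours (2.56%, beside 15.5% of all genes) and 3 at 6 hours against control (7.69%, beside 19.2%), and with the row of highest mean 3 at 6 hours (beside 17.8%). A pseudocount of 1 gave 14 row shares between the time points (10.9%, beside 5.82% of all row shares). Median-centred libraries gave 4 row shares between the time points (3.12%, beside 5.43%) and moved the medians against control to 0.08 and 0.07. For these the cause was not tested.

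Replicate numbers gave no sign of pairing the samples. Deviations of same-numbered libraries from their group means correlated between -0.22 and 0.02, and those of differently numbered libraries between -0.12 and 0.17. With 3 libraries a group, deviations from the mean depend on each other, so this cannot settle whether the numbers pair the samples. With the replicate number as a block, 3 genes were called at 0 hours, 3 at 6 hours against control and 6 between the time points (7.69, 7.69 and 15.4%, beside 14.5, 18.0 and 8.74% of all genes), and 4 row shares between the time points (3.12%, beside 5.16%). Reads per row were not used here, so no counting error is given for low rows, and the skipped or intron-retaining forms of these genes could not be followed.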
